A study of Homo sapiens with 15 samples.

Results

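The Notch genes described here are 3 receptors (NOTCH1, NOTCH2, NOTCH3), 3 ligands (JAG1, JAG2, DLL1), 2 parts of the nuclear complex (RBPJ, MAML1) and 2 target genes (HES1, HEY1). They were chosen by gene symbol in the count tables and make up 10 of the 60649 genes listed. RNA was sequenced from HSC-5 cells, a line from a cutaneous squamous cell carcinoma of the ear that had been made to express Cas9, after lentiviral delivery of a single guide RNA (sgRNA). The 15 libraries fall into 5 conditions of 3 biological replicates each: sgNeg, 2 with an sgRNA to PRMT5 (sgPRMT5-1, sgPRMT5-2) and 2 with an sgRNA to WDR77 (sgWDR77-1, sgWDR77-2). sgNeg is the empty vector control and carries the genotype label WT, the sgPRMT5 conditions are labelled PRMT5 Knockout and the sgWDR77 conditions WDR77 Knockout, each with its own sgRNA. All 5 conditions share the treatment label Neomycin, and the methods give selection in G418. The cells are not stated to be clones, and the deposited design text speaks of knockdown where the labels speak of knockout. The libraries held between 5146711 and 6730428 reads on genes.

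Notch receptors sit in the cell membrane and are cut by proteases after binding a ligand on a neighbouring cell, which frees the intracellular domain. In the nucleus that domain joins the DNA-binding protein RBPJ and a Mastermind-like coactivator, and the complex switches on genes such as those of the HES and HEY repressors. In the epidermis Notch signalling drives keratinocytes that leave the basal layer to differentiate, and loss-of-function mutations of the receptors are frequent in cutaneous squamous cell carcinoma.

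Levels are in CPM, counts relative to the size of the library, after TMM scaling, which sets the libraries to a common scale. Differences are log2 fold changes with their 95% confidence interval, and a gene is called changed when its p-value, adjusted by Benjamini-Hochberg over the 14061 genes tested, is under 0.05. All 10 Notch genes passed the filter on low counts. The 4 comparisons with sgNeg share the same 3 sgNeg libraries, so their results are not independent of each other.

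The targeted genes were looked at first, as a check of the labels. PRMT5, an arginine methyltransferase, stood at 59.1, 49.6 and 67.8 CPM in sgNeg, at 33.0, 35.8 and 41.4 CPM in sgPRMT5-1, and at 44.2, 44.5 and 39.4 CPM in sgPRMT5-2. It stood at 54.5, 64.2 and 54.4 CPM in sgWDR77-1 and at 79.9, 65.2 and 64.5 CPM in sgWDR77-2. Every sgPRMT5 library lay below every sgNeg and sgWDR77 library, and the log2 fold change against sgNeg was -0.67 (adjusted p 0.0057) in sgPRMT5-1 and -0.45 (adjusted p 0.0114) in sgPRMT5-2. WDR77, the partner that PRMT5 binds, stood at 125, 114 and 119 CPM in sgNeg, at 30.9, 52.0 and 53.3 CPM in sgWDR77-1, and at 26.6, 24.9 and 22.0 CPM in sgWDR77-2. It stood at 134, 119 and 156 CPM in sgPRMT5-1 and at 126, 129.9 and 119 CPM in sgPRMT5-2. The sgWDR77 libraries lay far below all the others, and WDR77 fell against sgNeg by -1.43 with sgWDR77-1 (adjusted p 2.01e-06) and by -2.29 with sgWDR77-2 (adjusted p 6.89e-09). Without replicate 1 of sgWDR77-1 the former was -1.17 (adjusted p 8.16e-07). Without replicate 2 of sgNeg the PRMT5 values were -0.81 (adjusted p 0.00182) and -0.57 (adjusted p 0.0038), and those of WDR77 were -1.47 (adjusted p 2.26e-05) and -2.33 (adjusted p 1.64e-07). The PRMT5 transcript thus fell by less in its knockouts than the WDR77 transcript did in its own, and RNA counts do not measure the proteins.

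Replicates differed by more than counting error. Between replicates of a condition, chi-square per degree of freedom ranged from 1.58 to 19.4, where counting error alone gives values near 1. Some libraries stood apart from the rest. Replicate 1 of sgWDR77-1 differed from replicates 2 and 3 with chi-square values per degree of freedom of 13.7 and 19.4. Between those replicates the value was 3.42. Smaller values of the same pattern held for replicate 3 of sgPRMT5-1 (6.5 and 5.78, against 2.1 between the others). They also held for replicate 1 of sgWDR77-2 (5.34 and 7.33, against 2.11). Replicate 2 of sgNeg had the highest share of reads outside genes, 7.16%. Replicates 2 and 3 of sgWDR77-1 followed with 6.04% and 5.70%, against 2.75% to 4.26% in the other 12 libraries. The same 3 libraries had the most genes with a read, 20399, 19564 and 19720, against 17995 to 19230. The part of this in the differences of sgWDR77-1 was not tested. With all libraries 3, 5, 3 and 2 Notch genes were called against sgNeg in sgPRMT5-1 and sgPRMT5-2, then sgWDR77-1 and sgWDR77-2. Without replicate 1 of sgWDR77-1 these counts were 4, 5, 3 and 4, where 6.09%, 37.6%, 9.2% and 9.57% of all genes were called. Without replicate 2 of sgNeg they were 1, 5, 2 and 2, where 1.7%, 24.9%, 7.88% and 3.28% of all genes were called. With all libraries these shares were 2.87%, 31.0%, 9.48% and 4.79%. Called values of the Notch and targeted genes in comparisons that hold replicate 1 of sgWDR77-1 or replicate 2 of sgNeg are given with and without that library.

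The cells were checked against markers of their labelled type. The 8 squamous epithelial markers summed to between 1854 and 2803 CPM in each library, and KRT17 was the most abundant. KRT14 had mean counts under the filter, with 0.17 to 0.739 CPM per library, while TP63 stood at 311 to 528 CPM and CDH1 at 298 to 460.0 CPM. KRT5, a keratin of basal keratinocytes, stood at 512, 638 and 817 CPM in sgNeg, and fell in each knockout condition, by log2 fold changes of -1.27, -3.53, -4.02 and -2.82 in sgPRMT5-1 and sgPRMT5-2, then sgWDR77-1 and sgWDR77-2 (adjusted p at most 1.21e-05). KRT6A fell as well in each, by -1.63, -3.65, -3.71 and -2.14 in the same order (adjusted p at most 0.00154), and so did DSG3, by -0.49, -0.87, -0.98 and -0.66 (adjusted p at most 0.0307). CDH1 was called higher in sgPRMT5-2 (0.35, adjusted p 0.00214), sgWDR77-1 (0.43, 0.00135) and sgWDR77-2 (0.36, 0.009), and KRT17 in sgWDR77-2 (0.83, 2.64e-06), while TP63 and EPCAM were not called. Of markers of other cell types, 4 of fibroblasts summed to 6.69 to 15.9 CPM per library with COL1A1 highest, 3 of endothelium to 12.7 to 36.1 CPM with CDH5 highest, 4 of leukocytes to 0.36 to 1.83 CPM with CD14 highest, and 3 of melanocytes to 2.55 to 7.48 CPM. COL1A2, CD3E and DCT had no read in any library. CDH5 was called higher in sgWDR77-1 (0.80, adjusted p 0.00325), and VWF (-2.28, adjusted p 0.00389), PMEL (-1.41, 0.0162) and COL1A1 (-0.65, 0.0477) were called lower in sgPRMT5-2. In bulk RNA, fewer cells of a kind and less RNA per cell cannot be told apart, and the part of these marker changes in the Notch values was not tested. Marker calls were not retested with libraries left out.

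**Figure D1:**
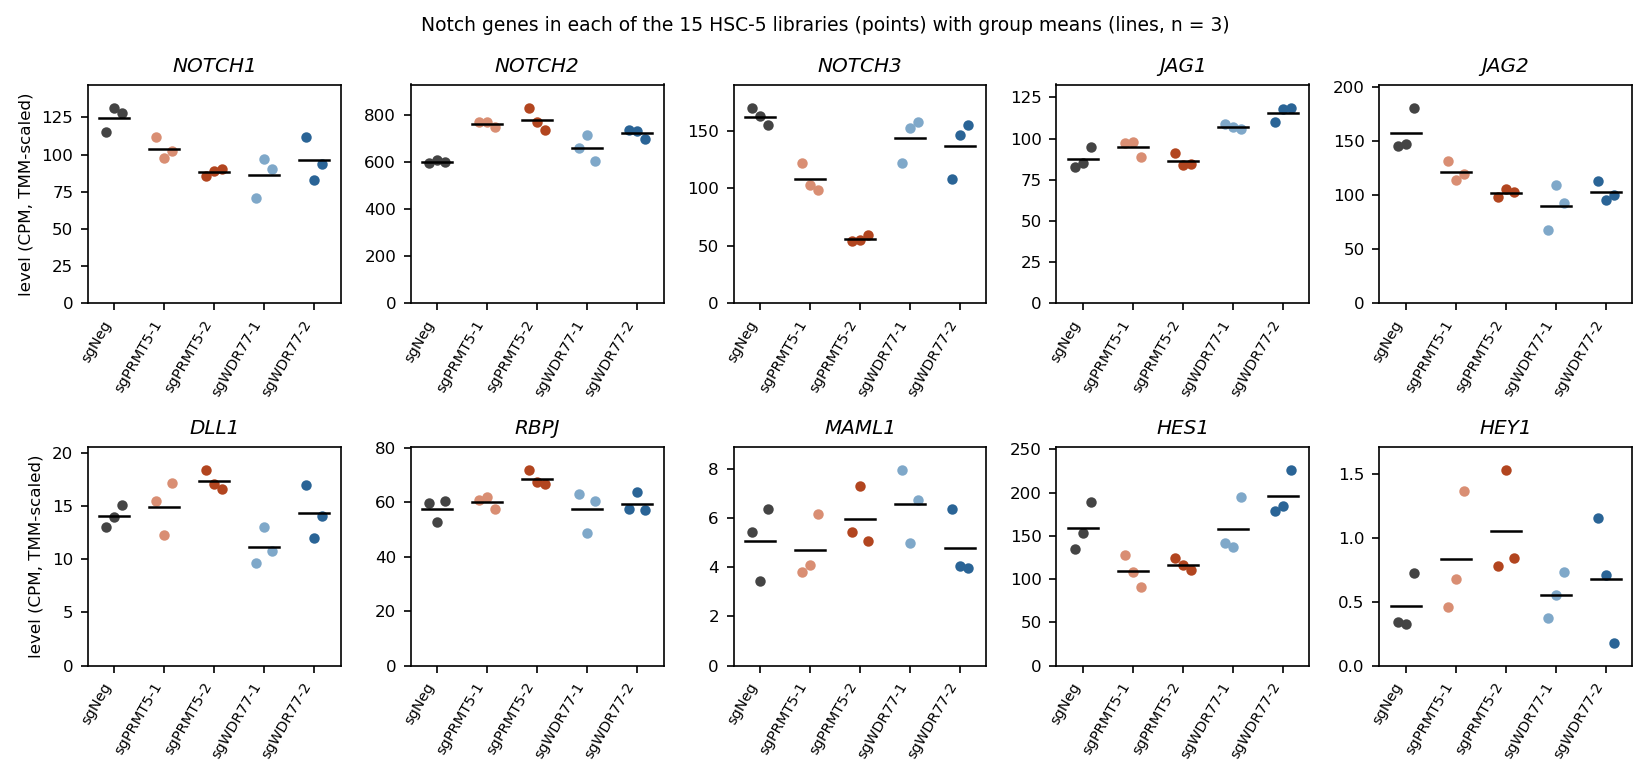
Levels of the 10 Notch genes in CPM after TMM scaling (vertical axes, each from 0) in the 15 libraries by condition; points are libraries and lines are means of 3. NOTCH3 is lowest in the sgPRMT5-2 libraries, at 54.3 to 59.2 CPM against 155 to 169.6 CPM in sgNeg.

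Among the receptors, NOTCH1 (chr9:136494433-136546048, minus strand, GRCh38) is a receptor often mutated in cutaneous squamous carcinoma. Its level was 115, 131 and 128 CPM in sgNeg, 112, 97.4 and 102 CPM in sgPRMT5-1, and 85.7, 89.2 and 90.4 CPM in sgPRMT5-2. In the WDR77 knockouts it was 70.9, 96.8 and 89.96 CPM in sgWDR77-1 and 112, 82.7 and 93.4 CPM in sgWDR77-2. All 12 knockout libraries lay below the lowest sgNeg library, and the lowest value was in replicate 1 of sgWDR77-1. NOTCH1 was called lower in sgPRMT5-2, with a log2 fold change of -0.50 (95% interval -0.74 to -0.25, adjusted p 0.00269), and in sgWDR77-1, with -0.55 (-0.79 to -0.30, adjusted p 0.00493). Without replicate 1 of sgWDR77-1 the latter was -0.41 (adjusted p 0.0181), and without replicate 2 of sgNeg it was -0.51 (adjusted p 0.0216). In a fit of only the libraries compared it was -0.52 and missed the threshold (adjusted p 0.0632, within 0.00222 to 0.0632 over all alternatives). Without replicate 2 of sgNeg the value in sgPRMT5-2 was -0.46 (adjusted p 0.0144). In sgWDR77-2 the log2 fold change of -0.39 (-0.63 to -0.15) missed the threshold at an adjusted p of 0.0577, and in sgPRMT5-1 that of -0.26 (-0.50 to -0.03) did so at 0.239.

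The NOTCH1 call in sgWDR77-2 turned on small changes. The adjusted p was 0.0478 with scaling by the median ratio to a reference library (RLE) and 0.0479 with library totals alone. It was 0.0104, 0.0371 and 0.0461 without replicate 1, 2 or 3 of sgWDR77-1, 0.0435 without replicate 3 of sgPRMT5-1 and 0.0198 without replicate 1 of sgWDR77-2, within a range of 0.0104 to 0.211 over all alternatives.

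NOTCH2 (chr1:119911553-120100779, minus strand) is a receptor of the same design with 4 close partial copies, the NOTCH2NL genes, in the genome. Its level was 596, 612 and 603 CPM in sgNeg, 771, 771 and 750.1 CPM in sgPRMT5-1, and 832, 773 and 739 CPM in sgPRMT5-2. With WDR77 knocked out it was 663, 716 and 606 CPM in sgWDR77-1 and 736, 734 and 700.1 CPM in sgWDR77-2. The sgPRMT5-1, sgPRMT5-2 and sgWDR77-2 libraries all lay above sgNeg, whereas replicate 3 of sgWDR77-1 lay within the range of sgNeg. NOTCH2 was called higher in sgPRMT5-1, with a log2 fold change of 0.34 (0.18 to 0.50, adjusted p 0.0176), and in sgPRMT5-2, with 0.37 (0.21 to 0.53, adjusted p 0.00111). The difference was 0.13 (-0.04 to 0.29, adjusted p 0.337) in sgWDR77-1 and 0.26 (0.10 to 0.42, adjusted p 0.0596) in sgWDR77-2. The listed NOTCH2NL genes each held at most 9 reads in a library, at most 0.242% of the NOTCH2 count, and how reads that match both were counted is not known.

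The NOTCH2 call in sgPRMT5-1 did not hold when a library of either group was left out. Without replicate 1, 2 or 3 of sgNeg the adjusted p was 0.0918, 0.05 and 0.084, with the unrounded value of the second just over the threshold. Without replicate 1, 2 or 3 of sgPRMT5-1 it was 0.0724, 0.0956 and 0.0869, and with library totals alone it was 0.0515. The log2 fold change stayed between 0.28 and 0.34 in these alternatives. The call in sgPRMT5-2 held in all of them, with adjusted p up to 0.0178, and was 0.38 (adjusted p 0.00337) without replicate 2 of sgNeg. In sgWDR77-2 NOTCH2 passed without replicate 1 of sgWDR77-1 (adjusted p 0.0135), without its replicate 3 (0.0303) and with no count filter (0.0118), within a range of 0.0118 to 0.217.

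NOTCH3 (chr19:15159038-15200995, minus strand) is the receptor whose own transcription Notch signalling is known to raise in several cell types. Its level was 169.6, 162 and 155 CPM in sgNeg, 122, 103 and 98.5 CPM in sgPRMT5-1, and 54.3, 54.9 and 59.2 CPM in sgPRMT5-2. In the WDR77 knockouts it was 122, 153 and 157 CPM in sgWDR77-1 and 108, 146 and 155 CPM in sgWDR77-2. Both PRMT5 knockouts lay wholly below sgNeg, sgPRMT5-2 also wholly below every other library, and both WDR77 knockouts overlapped sgNeg. NOTCH3 was called lower in sgPRMT5-1, with a log2 fold change of -0.59 (-0.85 to -0.34, adjusted p 0.0083), and in sgPRMT5-2, with -1.53 (-1.80 to -1.26, adjusted p 2.4e-08). Without replicate 3 of sgPRMT5-1 the former was -0.57 and missed the threshold (adjusted p 0.0663, the highest over all alternatives, the lowest being 0.000986). Without replicate 2 of sgNeg the values were -0.61 (adjusted p 0.0315) and -1.54 (adjusted p 7.74e-07). Neither WDR77 knockout was called, at -0.18 (-0.43 to 0.07, adjusted p 0.386) with sgWDR77-1 and -0.26 (-0.52 to -0.01, adjusted p 0.232) with sgWDR77-2. Without its replicate 1 the value of sgWDR77-1 was -0.06 (adjusted p 0.813).

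The shift among the receptors is seen in their shares per kilobase of exon, a scale for a rough comparison of levels between genes. NOTCH2 made up 57.0% ± 0.424 (SD, n = 3) of the summed receptor level in sgNeg, 69.9% ± 1.80 in sgPRMT5-1 and 78.1% ± 1.60 in sgPRMT5-2, and it held 64.1% ± 3.89 with sgWDR77-1 and 66.1% ± 2.36 with sgWDR77-2. NOTCH3 made up 27.3% ± 1.28 in sgNeg, 17.5% ± 1.39 in sgPRMT5-1 and 10.01% ± 0.841 in sgPRMT5-2, and it held 24.8% ± 2.81 with sgWDR77-1 and 22.1% ± 3.83 with sgWDR77-2. NOTCH1 made up 15.8% ± 0.954 in sgNeg and between 11.1% and 12.7% in the knockouts. NOTCH2 led in every condition, and NOTCH3 dropped in sgPRMT5-2 to a share below that of NOTCH1, which was 11.8% ± 0.787 there.

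Of the ligands, JAG1 (chr20:10637684-10673999, minus strand) is a membrane protein that binds Notch receptors on neighbouring cells. Its level was 82.6, 85.3 and 94.9 CPM in sgNeg, 109, 107 and 106 CPM in sgWDR77-1, and 110.3, 118 and 119 CPM in sgWDR77-2. In the PRMT5 knockouts it was 97.3, 97.95 and 88.9 CPM in sgPRMT5-1 and 91.1, 83.8 and 84.6 CPM in sgPRMT5-2. All WDR77 knockout libraries lay above all sgNeg and PRMT5 knockout libraries, while both PRMT5 knockouts overlapped sgNeg. JAG1 was called higher in sgWDR77-1, with a log2 fold change of 0.29 (0.11 to 0.48, adjusted p 0.0421), and in sgWDR77-2, with 0.40 (0.22 to 0.59, adjusted p 0.00882). The difference was 0.12 (-0.07 to 0.30, adjusted p 0.546) in sgPRMT5-1 and -0.02 (-0.20 to 0.17, adjusted p 0.922) in sgPRMT5-2.

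The JAG1 call in sgWDR77-1 was close to the threshold and was lost without 9 of the 15 libraries in turn. Without replicate 1, 2 or 3 of sgNeg the adjusted p was 0.161, 0.0893 and 0.06, and without replicate 2 or 3 of sgWDR77-1 it was 0.0848 and 0.0542. Leaving out replicate 2 or 3 of sgPRMT5-2 gave 0.0607 and 0.0503, and leaving out replicate 2 or 3 of sgWDR77-2 gave 0.057 and 0.0502. Without replicate 1 of sgWDR77-1 the call held (0.29, adjusted p 0.0405). In a fit of only the libraries compared (0.32, adjusted p 0.151) and with the replicate number as a block (0.29, adjusted p 0.0586) it was lost. The log2 fold change ranged from 0.24 to 0.32 and the adjusted p from 0.0324 to 0.161 over all alternatives. In sgWDR77-2 the call was lost without replicate 1 of sgNeg (adjusted p 0.0658) and without replicate 2 of sgWDR77-2 (0.0586), the lowest value being 0.00194, and held without replicate 2 of sgNeg (0.37, adjusted p 0.0402).

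JAG2 (chr14:105140982-105168824, minus strand) is the other Jagged ligand. Its level was 145, 147 and 180.3 CPM in sgNeg, 131, 113 and 119.5 CPM in sgPRMT5-1, and 97.8, 106 and 102 CPM in sgPRMT5-2. In the WDR77 knockouts it was 67.8, 109.6 and 92.3 CPM in sgWDR77-1 and 113, 95.2 and 99.9 CPM in sgWDR77-2. Every knockout library lay below every sgNeg library, and as for NOTCH1 the lowest was replicate 1 of sgWDR77-1. JAG2 was called lower in sgPRMT5-2 (-0.62, -0.88 to -0.35, adjusted p 0.000927), sgWDR77-1 (-0.83, -1.10 to -0.56, adjusted p 0.000319) and sgWDR77-2 (-0.61, -0.88 to -0.35, adjusted p 0.00584). These 3 calls held in every alternative, and in sgWDR77-1 the value was -0.63 (adjusted p 0.000661) without its replicate 1 and -0.87 (adjusted p 0.00115) without replicate 2 of sgNeg. Without the latter it was -0.67 in sgPRMT5-2 (adjusted p 0.00227) and in sgWDR77-2 (adjusted p 0.0115). In sgPRMT5-1 the log2 fold change of -0.37 (-0.63 to -0.11) missed the threshold at an adjusted p of 0.126, and passed it without replicate 1 of sgWDR77-1 (0.0142) and in a fit of only the libraries compared (0.0354), within a range of 0.0142 to 0.283.

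DLL1, a Delta-like ligand, was far lower, at 9.61 to 18.3 CPM across the libraries. Its libraries lay at 13.0, 13.97 and 15.1 CPM in sgNeg, at 18.3, 17.0 and 16.6 CPM in sgPRMT5-2, which lay wholly above, and at 9.61, 12.96 and 10.8 CPM in sgWDR77-1, which lay wholly below. No comparison with sgNeg was called, the log2 fold change being 0.31 (-0.03 to 0.65, adjusted p 0.16) in sgPRMT5-2 and -0.34 (-0.72 to 0.04, adjusted p 0.267) in sgWDR77-1, or -0.23 (adjusted p 0.512) without its replicate 1. In the annotation NOTCH1, NOTCH2 and JAG1 overlap long noncoding RNAs on the opposite strand and JAG2 and DLL1 on their own, microRNAs lie within NOTCH1, NOTCH3, JAG1 and JAG2, and DLL1 overlaps FAM120B on the opposite strand. PRMT5 overlaps an antisense RNA and WDR77 overlaps ATP5PB and noncoding RNAs. The deposited labels name a stranded TruSeq mRNA protocol, whereas the methods name TruSeq RNA Library Prep Kit v2. Since neither the strand setting of the counting nor the annotation release is given, reads of overlapping genes and of near-identical copies are uncertain. Per kilobase of exon in sgNeg, JAG2 stood at 24.6 ± 3.11 CPM (SD, n = 3), JAG1 at 9.42 ± 0.692 CPM and DLL1 at 3.67 ± 0.265 CPM. In sgWDR77-1 JAG2 stood at 14.1 ± 3.28 CPM per kilobase and JAG1 at 11.5 ± 0.181 CPM per kilobase, so that the gap between the Jagged ligands there was within the spread of JAG2.

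**Figure D2:**
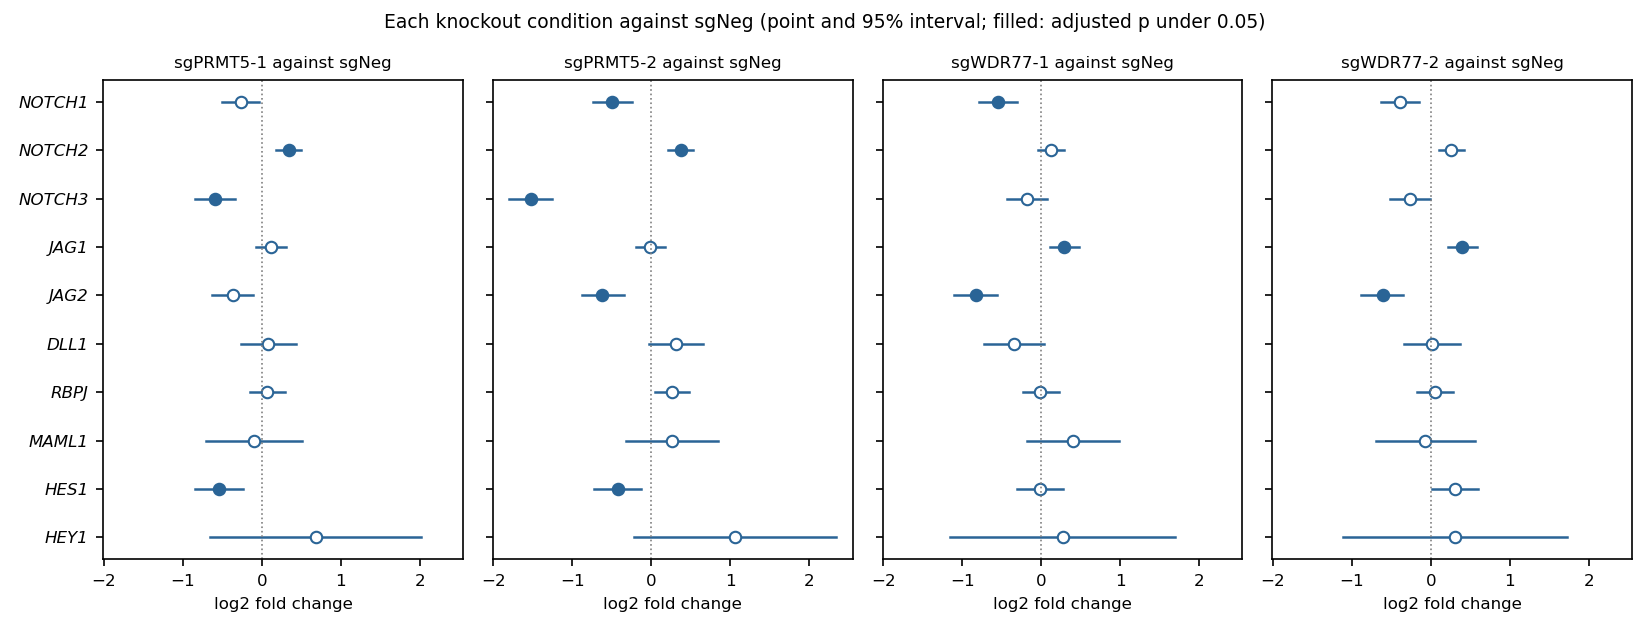
Log2 fold change of each Notch gene (points) with its 95% interval (lines) in the 4 knockout conditions against sgNeg, 3 libraries each; filled points have an adjusted p under 0.05. NOTCH3 in sgPRMT5-2 is farthest from 0, at -1.53, and the intervals of HEY1 are the widest.

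In the nuclear complex, RBPJ binds DNA and MAML1 is a coactivator that the complex recruits. RBPJ stood at 48.9 to 71.8 CPM across the libraries, with 59.6, 52.8 and 60.4 CPM in sgNeg and 71.8, 67.3 and 66.8 CPM in sgPRMT5-2. The sgPRMT5-2 libraries lay above sgNeg, and the 3 other knockout conditions overlapped it. The log2 fold change in sgPRMT5-2 was 0.26 (0.04 to 0.48) with an adjusted p of 0.0693, which ranged from 0.0275 in a fit of only the libraries compared to 0.24 over the alternatives. MAML1 stood at 3.45 to 7.94 CPM, on 21 to 43 reads a library, overlapped sgNeg in all 4 comparisons, and had intervals that reached from -0.71 to 0.98. No call was made for either gene, and changes of the size of that interval in MAML1 were not detectable at this depth.

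HES1 (chr3:194136148-194138732, plus strand) encodes a transcriptional repressor and is a direct target of the Notch complex in many cell types. Its level was 135, 154 and 189 CPM in sgNeg, 128, 108 and 91.1 CPM in sgPRMT5-1, and 124, 116 and 110.0 CPM in sgPRMT5-2. With WDR77 knocked out it was 142, 137 and 195 CPM in sgWDR77-1 and 179, 184 and 226 CPM in sgWDR77-2. All PRMT5 knockout libraries lay below all sgNeg and WDR77 knockout libraries, and both WDR77 knockouts overlapped sgNeg. HES1 was called lower in sgPRMT5-1, with a log2 fold change of -0.54 (-0.84 to -0.24, adjusted p 0.043), and in sgPRMT5-2, with -0.43 (-0.73 to -0.13, adjusted p 0.0263). The differences of -0.01 (-0.31 to 0.28, adjusted p 0.975) in sgWDR77-1 and 0.31 (0.02 to 0.60, adjusted p 0.218) in sgWDR77-2 were not called. HES1 varied among sgNeg replicates by more than the receptors did, with a mean of 159 ± 27.6 CPM (SD, n = 3).

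Both HES1 calls depended on single libraries. In sgPRMT5-1 the adjusted p was 0.0928 and 0.141 without replicate 2 or 3 of sgNeg, 0.115 and 0.217 without replicate 2 or 3 of sgPRMT5-1, 0.0527 and 0.0533 without replicate 1 or 3 of sgPRMT5-2, and 0.0856 with no count filter, the lowest over the alternatives being 0.0126. In sgPRMT5-2 it was 0.114 without replicate 3 of sgNeg, 0.056 and 0.0739 without replicate 2 or 3 of sgPRMT5-2, and 0.0592 with no count filter, the lowest being 0.00131, and the call held without replicate 2 of sgNeg (-0.45, adjusted p 0.0488). The log2 fold change stayed negative throughout, between -0.68 and -0.45 in sgPRMT5-1 and between -0.56 and -0.33 in sgPRMT5-2.

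HEY1, a related repressor, was near the limit of detection with 1 to 9 reads a library, or 0.18 to 1.53 CPM. Its log2 fold changes of 0.68, 1.06, 0.28 and 0.31 in sgPRMT5-1 and sgPRMT5-2, then sgWDR77-1 and sgWDR77-2 had intervals that all held 0, the widest from -1.15 to 1.70 in sgWDR77-1. The sgPRMT5-2 libraries, at 0.777 to 1.53 CPM on 5 to 9 reads, lay above those of sgNeg, at 0.329 to 0.726 CPM on 2 to 4 reads, and the comparison was not called (adjusted p 0.199). Changes of HEY1 within intervals of this width were not detectable at this depth. Per kilobase of exon in sgNeg, HES1 stood at 77.2 ± 13.4 CPM and HEY1 at 0.0846 ± 0.0412 CPM (SD, n = 3).

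**Figure D3:**
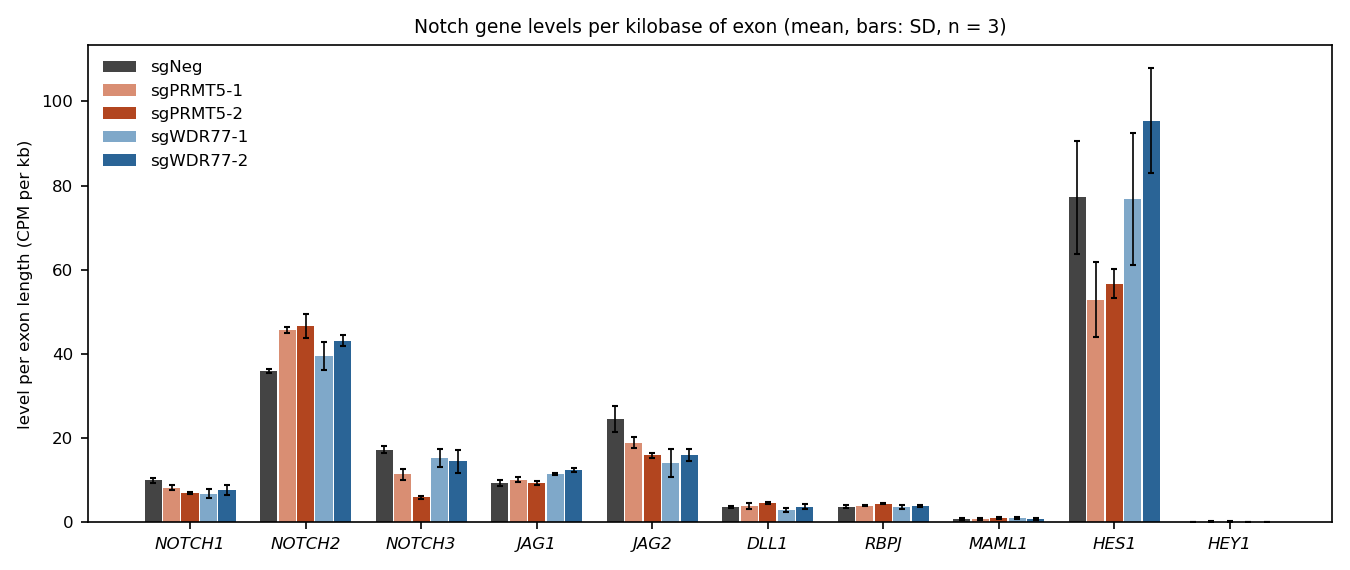
Mean level of the 10 Notch genes in CPM per kilobase of exon (vertical axis, from 0) by condition, with bars for the SD of 3 libraries. HES1 and NOTCH2 are the highest in every condition, at 77.2 and 36.1 CPM per kilobase in sgNeg.

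On this scale the order in sgNeg after HES1 was NOTCH2 at 36.1 ± 0.471, JAG2 at 24.6 ± 3.11, NOTCH3 at 17.2 ± 0.793, NOTCH1 at 9.96 ± 0.673 and JAG1 at 9.42 ± 0.692 CPM per kilobase. RBPJ at 3.76 ± 0.274, DLL1 at 3.67 ± 0.265, MAML1 at 0.850 ± 0.248 and HEY1 followed. On this scale NOTCH1 and JAG1, and RBPJ and DLL1, did not differ beyond their spread among replicates. The scale divides by the union of all annotated exons, 15.3 kilobases for RBPJ and 3.82 kilobases for DLL1. That union can be longer than the transcripts present, which was not measured, so the order of genes is approximate.

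Counted together, 3 of the 10 Notch genes were called in sgPRMT5-1, 1 higher and 2 lower, where 2.87% of all genes tested were called, 1.26% higher and 1.61% lower. In sgPRMT5-2 there were 5, 1 higher and 4 lower, against 31.0% of all genes, 16.3% higher and 14.7% lower. In sgWDR77-1 there were 3, 1 higher and 2 lower, against 9.48% of all genes, 3.58% higher and 5.90% lower. In sgWDR77-2 there were 2, 1 in each direction, against 4.79% of all genes, 1.81% higher and 2.98% lower. The number of Notch genes whose libraries did not overlap sgNeg was 5, 8, 4 and 4 in the same order, where 24.1%, 50.4%, 24.1% and 25.2% of all genes did not overlap. In sgPRMT5-2 the share of calls over all genes is high enough that a count of 5 says little about these genes.

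The counts moved with single libraries. In sgPRMT5-1 the count fell to 1 without replicate 2 or 3 of sgNeg or replicate 2 of sgPRMT5-1, and to 0 by limma without replicate 3 of sgPRMT5-1, where with all libraries 5 had an unadjusted p under 0.05. In sgWDR77-2 it fell to 1 without replicate 1 of sgNeg or replicate 2 of sgWDR77-2 and rose to 4 without replicate 1 or 3 of sgWDR77-1. The shares of all genes called moved too. In sgPRMT5-1 the share was 1.5%, 1.7% and 2.06% without replicate 1, 2 or 3 of sgNeg, 1.3% and 0.824% without replicate 2 or 3 of sgPRMT5-1, and 6.09% without replicate 1 of sgWDR77-1. In sgWDR77-1 it was 4.82% without replicate 3 of sgNeg. In sgWDR77-2 it was 3.16% without replicate 1 of sgNeg, 2.92% and 2.79% without replicate 1 or 2 of sgWDR77-2, and 9.57% and 5.8% without replicate 1 or 3 of sgWDR77-1. The split of all calls between directions depended on scaling: 43.8% of calls in sgPRMT5-1 and 52.6% in sgPRMT5-2 were higher, against 27.1% and 37.9% with library totals alone. It depended on single libraries too. Without replicate 2 of sgNeg 27.6% of calls in sgPRMT5-1 were higher, and 23.5% in sgWDR77-2, where it was 37.8% with all libraries. No called value of a Notch gene changed direction under any setting. The median log2 fold change of the 10 genes was -0.02, 0.12, -0.01 and 0.03 in sgPRMT5-1 and sgPRMT5-2, then sgWDR77-1 and sgWDR77-2, against 0.02, 0.01, -0.01 and 0.02 over all genes tested. The median size of the change, without its sign, was 0.30, 0.40, 0.29 and 0.29, against 0.19, 0.33, 0.22 and 0.20 over all genes. Over the 4 comparisons, 6 of the 10 genes were called at least once, 2 of them higher and 4 lower, and 0 were called in all 4. Of all genes tested 36.5% were called at least once, 19.0% higher and 18.4% lower.

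The knockouts were then compared with each other, which tests whether conditions differ. The comparison of PRMT5 with WDR77 knockouts averages the sgRNAs to each gene. Its error comes from the spread of libraries within conditions, so differences between sgRNAs to a gene do not enter its intervals and p-values. With 2 sgRNAs to each gene, effects of the targeted gene and of the single sgRNAs cannot be told apart there. Between the PRMT5 sgRNAs, 1 Notch gene was called, against 7.53% of all genes, 3.55% higher and 3.98% lower: NOTCH3 was lower in sgPRMT5-2 than in sgPRMT5-1, by a log2 fold change of -0.94 (-1.21 to -0.66, adjusted p 0.000108), and this call held in every alternative. In a fit of only the libraries compared, the count was 3, with NOTCH1 (-0.23, adjusted p 0.0471, range 0.0471 to 0.531) and JAG2 (-0.25, adjusted p 0.0292, range 0.0292 to 0.533) lower as well, and 19.2% of all genes were called in that fit. With libraries left out, the share of all genes was 2.41%, 3.23% and 11.7% without replicate 1, 2 or 3 of sgPRMT5-1, 3.24%, 3.27% and 3.34% without replicate 1, 2 or 3 of sgPRMT5-2, and 14% without replicate 1 of sgWDR77-1. Between the WDR77 sgRNAs, limma called 0 Notch genes, with 1 at an unadjusted p under 0.05, against 2.41% of all genes, 1.84% higher and 0.569% lower. That share was 0.319% and 0.604% without replicate 1 or 2 of sgWDR77-2, and between 1.1% and 1.2% without replicate 1, 2 or 3 of sgPRMT5-2, and 0.121% in a fit of only the libraries compared. HES1 was that gene, with 0.32 (0.03 to 0.62, adjusted p 0.215). Higher genes made up 76.4% of the calls between the WDR77 sgRNAs, and 59.8% with library totals alone. Squamous markers differed as well, KRT5 (-2.26, adjusted p 1.17e-08) and KRT6A (-2.02, adjusted p 0.0136) between sgPRMT5-2 and sgPRMT5-1, and KRT5 (1.19, adjusted p 0.00174) and KRT17 (0.83, adjusted p 1.59e-05) between sgWDR77-2 and sgWDR77-1, where CDH5 also differed (-0.85, adjusted p 0.012).

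With both sgRNAs of each gene pooled, 5 Notch genes differed between the PRMT5 and the WDR77 knockouts, 2 higher and 3 lower in the PRMT5 knockouts, against 27.1% of all genes, 15.7% higher and 11.4% lower. Higher genes made up 57.8% of those calls and 41.0% with library totals alone. NOTCH3 was lower by -0.84 (-1.03 to -0.65, adjusted p 1.01e-06), HES1 by -0.64 (-0.85 to -0.43, adjusted p 0.000104) and JAG1 by -0.30 (-0.43 to -0.17, adjusted p 0.00144), and these calls held in every alternative. Without replicate 1 of sgWDR77-1 the values were -0.92 (adjusted p 4.73e-08), -0.69 (adjusted p 2.36e-05) and -0.32 (adjusted p 0.000325). For HES1 and JAG1 all 6 PRMT5 knockout libraries lay below all 6 WDR77 knockout libraries, whereas for NOTCH3 the highest sgPRMT5-1 library overlapped the WDR77 knockouts. NOTCH2 was higher by 0.16 (0.05 to 0.28, adjusted p 0.0347) and DLL1 by 0.36 (0.10 to 0.61, adjusted p 0.034), or 0.14 (adjusted p 0.0294) and 0.28 (adjusted p 0.0849) without that library. Among markers, KRT5 was higher in the PRMT5 knockouts (1.02, adjusted p 3.45e-06), and KRT17 (-0.44, 3.35e-05), CDH5 (-0.56, 0.0021), VWF (-1.41, 0.0107) and PMEL (-0.92, 0.0252) were lower. For all of these markers the libraries of the PRMT5 and WDR77 knockouts overlapped. Mean KRT5 was 270 and 55.9 CPM in sgPRMT5-1 and sgPRMT5-2, then 40.0 and 91.3 CPM in sgWDR77-1 and sgWDR77-2. In the same order KRT17 stood at 873, 723, 805 and 1431 CPM, and CDH5 at 16.8, 15.55, 31.65 and 17.6 CPM. The part of these marker differences in the Notch values was not tested.

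The NOTCH2 and DLL1 calls between PRMT5 and WDR77 knockouts were less stable, and 3 genes were left with library totals alone. NOTCH2 missed the threshold with RLE scaling (0.14, adjusted p 0.0622), with library totals alone (0.10, 0.178), with limma-trend (0.16, 0.0532), without replicate 1 or 2 of sgPRMT5-1 (0.111 and 0.0866), without replicate 1, 2 or 3 of sgPRMT5-2 (0.166, 0.0626 and 0.0682), without replicate 3 of sgWDR77-1 (0.104) and without replicate 2 or 3 of sgWDR77-2 (0.0532 and 0.0748), the lowest adjusted p being 0.00534. DLL1 missed it with library totals alone (0.29, 0.0813), with no count filter (0.35, 0.067), without replicate 1 or 3 of sgPRMT5-1 (0.0868 and 0.0962), without replicate 1, 2 or 3 of sgPRMT5-2 (0.0958, 0.0583 and 0.0654), without replicate 1 or 3 of sgWDR77-1 (0.0849 and 0.0659) and without replicate 2 or 3 of sgWDR77-2 (0.105 and 0.0654), the lowest being 0.0167. JAG2 passed it only without replicate 2 of sgWDR77-1 (0.30, adjusted p 0.0157, range 0.0157 to 0.277). The count of genes was 3 without replicate 1 of sgPRMT5-1, any replicate of sgPRMT5-2, replicate 3 of sgWDR77-1, or replicate 2 or 3 of sgWDR77-2, where between 20.5% and 26.1% of all genes were called.

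**Figure D4:**
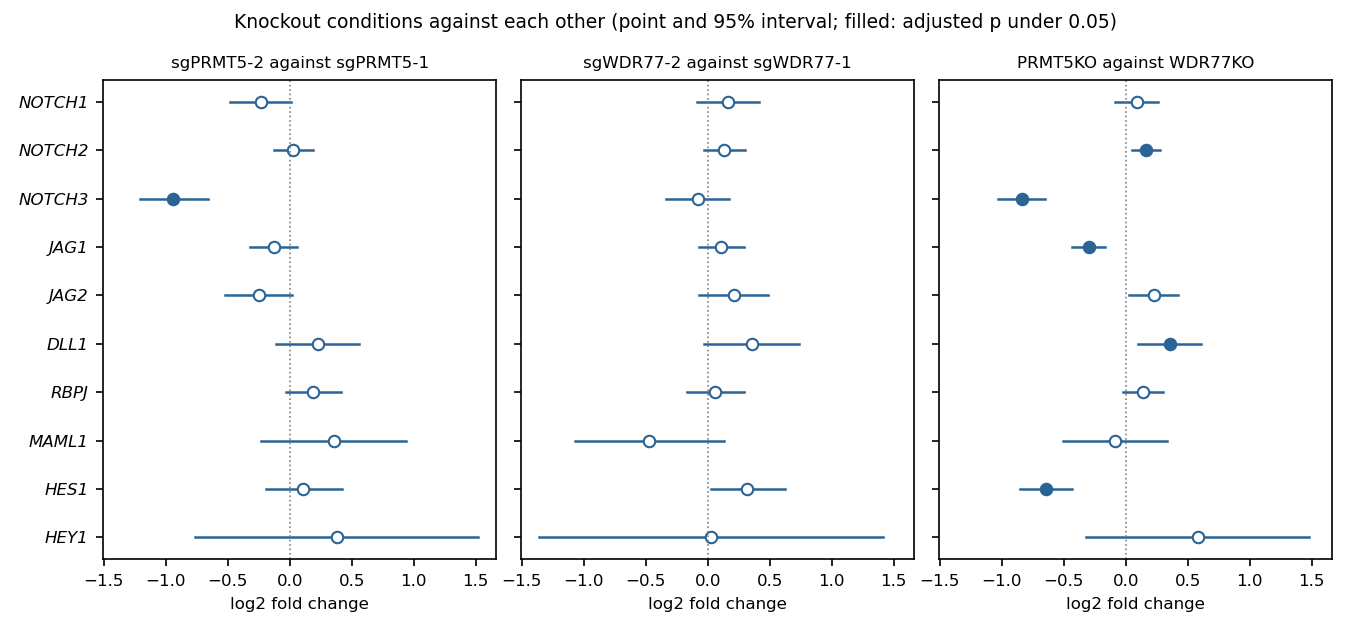
Log2 fold change of each Notch gene (points) with its 95% interval (lines) between the sgRNAs to PRMT5, between the sgRNAs to WDR77, and between the 6 PRMT5 and the 6 WDR77 knockout libraries; filled points have an adjusted p under 0.05. NOTCH3 differs between the PRMT5 sgRNAs, at -0.94, and no gene is filled between the WDR77 sgRNAs.

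The promoters were searched for short motifs because NOTCH3 and HES1 both moved in the PRMT5 knockouts. The sequences are from RefSeq (GRCh38.p14), which had entries for 8 of the 10 genes, 12 entries in all of which 5 are of RBPJ; DLL1 and HEY1 had none. In the 250 bases before each start, both strands were searched for the RBPJ core TGGGAA, the GC box GGGCGG and the N box CACNAG, which HES proteins bind. Of all 35116 promoters, 20.8% held the RBPJ core, 42.6% the GC box and 32.0% the N box. The RBPJ core was found for 2 of the 8 genes, HES1 and RBPJ, the GC box for 7 and the N box for 4. Counted by entry, as the shares of all promoters are, the matches were in 2, 8 and 4 of the 12 entries. Stretches of HES1 and NOTCH3 are shown because these genes moved, HES1 at chr3:194136028-194136147 on the plus strand with 2 RBPJ cores in capitals, 84 and 70 bases before the start, and NOTCH3 at chr19:15200996-15201115 on the minus strand with 5 GC boxes in capitals, of which the pair nearest the start share a base.
HES1: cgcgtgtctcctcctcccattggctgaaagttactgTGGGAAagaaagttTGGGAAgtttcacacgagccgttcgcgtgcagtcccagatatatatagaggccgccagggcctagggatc
NOTCH3: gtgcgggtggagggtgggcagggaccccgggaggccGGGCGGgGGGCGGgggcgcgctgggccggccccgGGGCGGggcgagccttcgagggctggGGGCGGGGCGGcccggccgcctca
The NOTCH3 promoter held no RBPJ core and that of HES1 no GC box in this window. The promoter of NRARP, a pathway gene described below that was also lower in the PRMT5 knockouts, held no RBPJ core and 4 GC boxes. A match describes letters and not binding, which was not measured here.

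The other genes of the pathway were taken from a list of 67, of which 59 act in Notch signalling and 8 are markers of suprabasal keratinocyte differentiation; 53 were tested. The numbers called were 1 in sgPRMT5-1, 26 in sgPRMT5-2 (13 in each direction), 7 in sgWDR77-1 (3 higher, 4 lower) and 3 in sgWDR77-2 (1 higher, 2 lower), or 1.89%, 49.1%, 13.2% and 5.66%. Of all genes tested 2.87%, 31.0%, 9.48% and 4.79% were called in these comparisons. The even split in sgPRMT5-2 depended on scaling and on single libraries: with library totals alone 8 were higher and 16 lower, without replicate 1 of sgNeg 6 and 13, and without replicate 1, 2 or 3 of sgPRMT5-2 7 and 13, 8 and 12, and 8 and 11. The median log2 fold changes of the list were 0.02, 0.03, 0.03 and 0.06, beside 0.02, 0.01, -0.01 and 0.02 over all genes. In all 27 genes were called at least once against sgNeg, a number that lay between 19 without replicate 3 of sgPRMT5-2 and 32 without replicate 1 of sgWDR77-1, both within 1.5 times. Of these, 15 were higher and 14 lower at least once, beside 36.5% of all genes called at least once, 19.0% higher and 18.4% lower. In sgPRMT5-1 limma called 0 without replicate 3 of sgPRMT5-1, with 13 at an unadjusted p under 0.05 when all libraries were kept, 2 without its replicate 1, replicate 3 of sgWDR77-1 or replicate 1 of sgWDR77-2, 3 without replicate 3 of sgNeg and 4 without replicate 1 of sgWDR77-1. In sgWDR77-2 it called 0 without replicate 1 of sgWDR77-2, with 17 at an unadjusted p under 0.05 when all libraries were kept, 1 without replicate 1 or 2 of sgNeg or replicate 3 of sgWDR77-2, and 7 without replicate 1 of sgWDR77-1. In sgWDR77-1 the number was 2 in a fit of only the libraries compared, where 2.71% of all genes were called.

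Between the PRMT5 and the WDR77 knockouts 14 of the 53 were called, 8 higher and 6 lower in the PRMT5 knockouts, or 26.4% against 27.1% of all genes. With library totals alone 15 were called, 3 higher and 12 lower, so the split depended on scaling. It moved with single libraries as well: 3 were higher and 7 lower without replicate 1 of sgPRMT5-2, and 5 and 8 without replicate 1 of sgPRMT5-1. Without replicate 3 of sgPRMT5-2 or replicate 2 of sgWDR77-2 the numbers were 4 and 6. Between the PRMT5 sgRNAs 5 were called, 1 higher and 4 lower, or 9.43% against 7.53% of all genes. This number was 2 without replicate 1 of sgPRMT5-1 or of sgPRMT5-2, 3 without replicate 2 of sgPRMT5-2 and 9 without replicate 3 of sgPRMT5-1. It was 12 without replicate 1 of sgWDR77-1, with 6 in each direction. In a fit of only the libraries compared it was 16, with 8 in each direction, where 19.2% of all genes were called. Between the WDR77 sgRNAs limma called 0, with 7 at an unadjusted p under 0.05, and 2 without replicate 1 of sgWDR77-1. The single genes and roles below were followed with libraries left out only through the numbers called. Where limma called 0, every pathway call of that comparison was lost: in sgPRMT5-1 without its replicate 3 and in sgWDR77-2 without its replicate 1. Most other calls were not followed gene by gene.

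**Figure D5:**
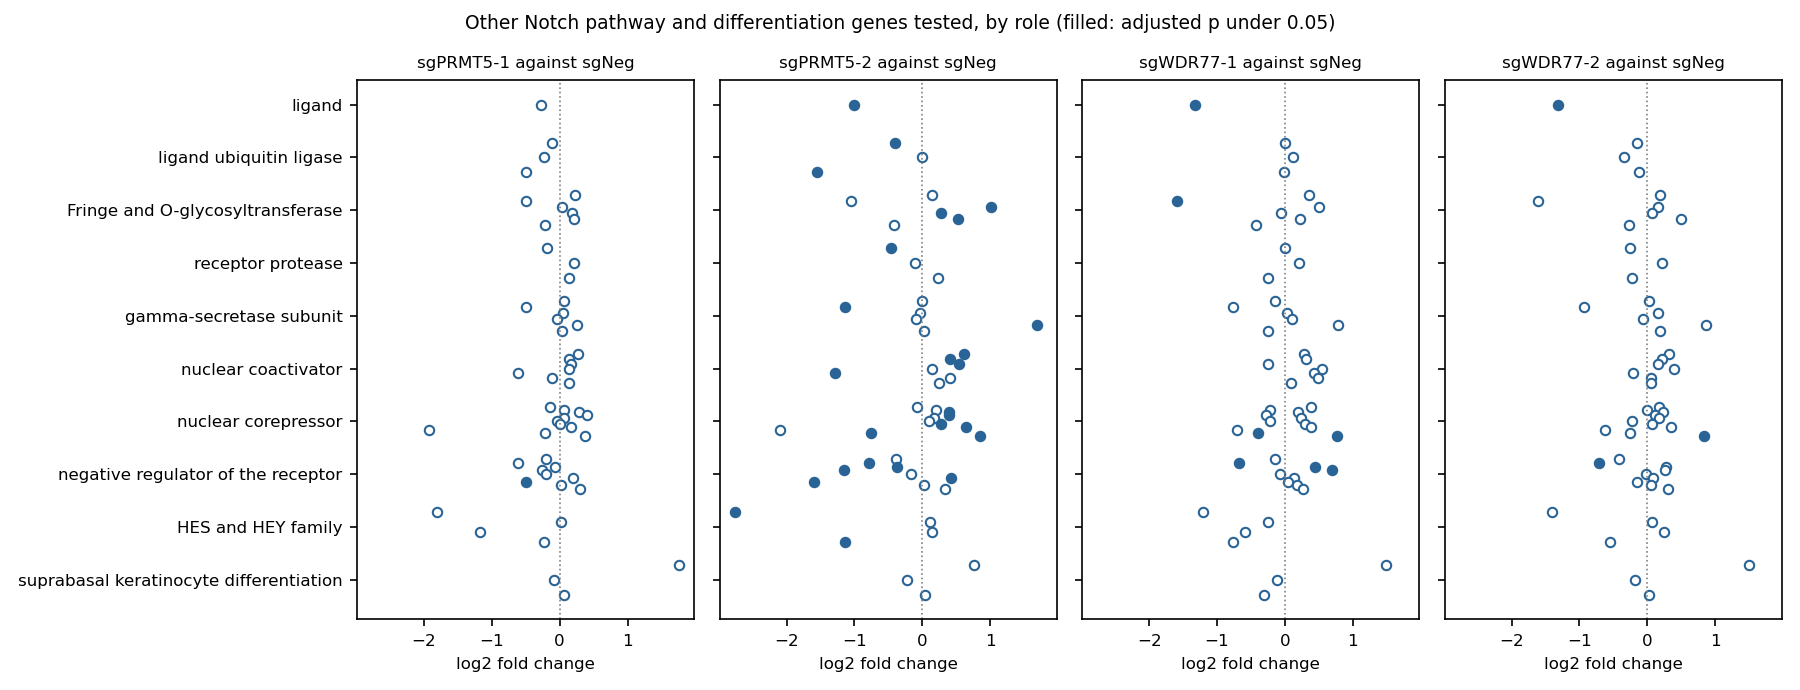
Log2 fold change against sgNeg of the 53 other genes tested (points), by role, in the 4 knockout conditions; filled points have an adjusted p under 0.05. Most filled points are in sgPRMT5-2, with 26, against 1 in sgPRMT5-1.

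NRARP, a feedback inhibitor that Notch signalling itself induces, was the gene called in sgPRMT5-1. Its level was 192, 165 and 186 CPM in sgNeg, 131, 137 and 118 CPM in sgPRMT5-1, and 60.01, 59.7 and 58.9 CPM in sgPRMT5-2. In the WDR77 knockouts it was 213, 183 and 169 CPM in sgWDR77-1 and 138, 171 and 182 CPM in sgWDR77-2. The PRMT5 knockouts lay below sgNeg, as for NOTCH3, and the WDR77 knockouts overlapped it. The log2 fold change was -0.49 (adjusted p 0.0136) in sgPRMT5-1 and -1.60 (adjusted p 2.09e-09) in sgPRMT5-2, and 0.05 and -0.15 in the WDR77 knockouts (adjusted p 0.816 and 0.475). Without replicate 3 of sgPRMT5-1 limma called 0 of the pathway genes in sgPRMT5-1, so the call of NRARP there was lost. NRARP was also lower in sgPRMT5-2 than in sgPRMT5-1 (-1.11, adjusted p 2.89e-06).

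Of 9 negative regulators tested, 5 were called in sgPRMT5-2, 1 higher and 4 lower, where 31.0% of all genes were called, 16.3% higher and 14.7% lower. The higher was ITCH (0.43, adjusted p 0.000589), which was chosen after its values were seen and was not called in the other knockout conditions. Among the others, the Deltex ubiquitin ligase DTX4 fell in sgPRMT5-2 (-1.15, adjusted p 0.000196) and rose in sgWDR77-1 (0.69, adjusted p 0.00853). DTX3L moved likewise, with -0.37 (adjusted p 0.00428) and 0.45 (adjusted p 0.00286). Both were lower in the PRMT5 than in the WDR77 knockouts, with -1.18 (adjusted p 1.12e-06) for DTX4 and -0.59 (adjusted p 1.25e-06) for DTX3L. DTX3 was called lower in sgPRMT5-2, sgWDR77-1 and sgWDR77-2, by -0.78, -0.67 and -0.71, and missed the threshold in sgPRMT5-1 (-0.61, adjusted p 0.0535).

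Of genes that act on ligands and receptors outside the nucleus, DLK2, a Delta-like protein without the domain that activates receptors, was called lower in sgPRMT5-2 (adjusted p 0.0106) and, by -1.32 each, in sgWDR77-1 (0.0105) and sgWDR77-2 (0.0144). The ligand ubiquitin ligases NEURL1B (-1.55, adjusted p 2.57e-05) and MIB1 (-0.40, adjusted p 0.0189) were lower in sgPRMT5-2. Of 6 enzymes tested that put sugars on the receptors, 3 were called in sgPRMT5-2, all higher, where 31.0% of all genes were called and 16.3% called higher. MFNG (1.01, adjusted p 0.0329) and POGLUT1 (0.53, adjusted p 0.00842) were among them. LFNG was lower in sgWDR77-1 (-1.59, adjusted p 0.0391). The receptor protease ADAM10 was lower in sgPRMT5-2 (-0.46, adjusted p 0.00453). Of the gamma-secretase subunits in sgPRMT5-2, APH1B was lower (-1.14, adjusted p 0.00997) and PSEN2 was higher (1.69, adjusted p 0.0206), the latter at no more than 3.23 CPM in any library.

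Of nuclear cofactors, 4 of 7 coactivators were called in sgPRMT5-2, 3 higher and 1 lower, and 6 of 11 corepressors, 5 higher and 1 lower, where 31.0% of all genes were called, 16.3% higher and 14.7% lower. So few genes say little about either role, and the split over the whole list depended on scaling. MAML2, related to MAML1, was the lower coactivator (-1.28, adjusted p 0.00237), and the acetyltransferase gene CREBBP was among the higher (0.62, adjusted p 0.000772). Among the Groucho-type corepressors in sgPRMT5-2, TLE3 was lower (-0.76, adjusted p 1.24e-05) and TLE1 (0.65, adjusted p 0.000815) and TLE4 (0.85, adjusted p 0.00783) were higher. TLE4 was also called higher in sgWDR77-1 (0.77, adjusted p 0.0436) and sgWDR77-2 (0.83, adjusted p 0.0452), and TLE3 lower in sgWDR77-1 (-0.40, adjusted p 0.0165). TLE4 was the only pathway gene called higher in sgWDR77-2, and this call was lost in most alternatives. The number higher there was 0 by limma with library totals alone, no count filter, the replicate block and only the libraries compared. It was also 0 without any single replicate of sgNeg, sgPRMT5-1, sgPRMT5-2 or sgWDR77-2. Of the HES and HEY family, 4 of 7 listed genes were tested, and HES2 (-2.76, adjusted p 0.00328) and HEYL (-1.14, adjusted p 0.00868) were lower in sgPRMT5-2, both at no more than 5.62 CPM in any library. Of the 8 suprabasal differentiation genes, 3 were tested and limma called 0 of them against sgNeg, with 1, 1, 2 and 1 at an unadjusted p under 0.05 in sgPRMT5-1 and sgPRMT5-2, then sgWDR77-1 and sgWDR77-2. The listed genes under the count filter were NOTCH4, DLL3, DLL4, DLK1, NEURL1, DTX1, HES5, HES7, HEY2, KRT1, IVL, SBSN, KRTDAP and DSC1.

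The genes whose levels were most like those of NOTCH1, JAG1 and HES1 over the 15 libraries were sought among 9221 genes, as a description. NOTCH1 was most like JAG2 (Pearson r 0.942, Spearman rho 0.932), AP4S1 (0.912, 0.914) and KDM2B (0.902, 0.943). JAG1 was most like SLC35D1 (0.896, 0.825), NNT (0.883, 0.846) and NR3C1 (0.879, 0.914), and HES1 was most like TRIB1 (0.858, 0.782), CCN2 (0.858, 0.893) and EGR1 (0.856, 0.889). The libraries fall into 5 conditions, so these values mix differences between conditions with those among replicates.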

How the data were processed

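The authors aligned 76-base single-end reads to hg38 with STAR 2.7.11b and counted them per gene with htseq-count 2.0.3, so each deposited value is an unnormalized count. Its 5 summary entries entered no total or test. Relative to all reads listed, those outside any gene came to 2.75% to 7.16%, those shared by genes to 7.09% to 7.93% and those with several alignments to 9.49% to 13.1%. Genes with a mean TMM-scaled count of at least 3 were tested with limma voom (limma 3.58.1, R 4.3.3), two-sided, in a single fit of the 15 libraries with 1 mean per condition and 10 residual degrees of freedom. TMM factors trimmed 0.3 of log ratios and 0.05 of levels. The code was tried on simulated counts first. The authors used DESeq2, which was not used here, and edgeR was not used either.

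Levels per kilobase use the union of exons in the annotation, which matched 60507 of the 60649 gene identifiers. Pathway genes other than ITCH were named when among the 2 smallest adjusted p-values of their role in a comparison with sgNeg and past the threshold there. Genes under the filter were given by name only. Likeness used genes with a mean scaled count of at least 50 and log2 CPM with a prior count of 2. The Notch genes, the lists and the rules were chosen with earlier results of these data known.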

Additional observations from a re-analysis of the deposited data

Results flagged for a closer look

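These results differed between the sgRNAs to a gene or between the PRMT5 and the WDR77 knockout conditions. The test was of the difference itself in limma, adjusted over all genes tested. Between PRMT5 and WDR77 knockouts, differences between sgRNAs to a gene did not enter the error of that test. Between sgPRMT5-2 and sgPRMT5-1, NOTCH3 differed by a log2 fold change of -0.94, NRARP by -1.11, NEURL1B by -1.05, DTX4 by -0.89, TLE3 by -0.55 and TLE1 by 0.48 (adjusted p at most 0.0241). TLE1 was the only pathway gene called higher there. The number higher was 0 by limma without replicate 1 or 2 of sgPRMT5-1 or any replicate of sgPRMT5-2, so that call was lost. The number of pathway genes called fell from 5 to 2 without replicate 1 of sgPRMT5-1 or of sgPRMT5-2. Between sgWDR77-2 and sgWDR77-1, WDR77 itself differed by -0.85 (adjusted p 0.0157), and missed the threshold without replicate 1 or 2 of sgWDR77-2 (adjusted p 0.0674 and 0.062) and in a fit of only the libraries compared (-0.86, adjusted p 0.177, within 7.14e-05 to 0.177 over all alternatives). Without replicate 1 of sgWDR77-1 it was -1.12 (adjusted p 7.14e-05).

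Between the PRMT5 and the WDR77 knockouts, the Notch genes NOTCH3 (-0.84), HES1 (-0.64) and JAG1 (-0.30) were lower and NOTCH2 (0.16) and DLL1 (0.36) higher in the PRMT5 knockouts. The NOTCH2 and DLL1 calls were each lost in 11 of 22 alternatives, with adjusted p up to 0.178 and 0.105. Of the targeted genes, PRMT5 differed by -0.68 and WDR77 by 1.99, or by -0.72 and 1.83 without replicate 1 of sgWDR77-1 (adjusted p 4.67e-06 and 1.07e-12). Of the other 53 pathway genes tested, 14 were called, 8 higher and 6 lower (26.4%, against 27.1% of all genes), and 3 higher and 12 lower with library totals alone. Single libraries moved this split too, to 3 higher and 7 lower without replicate 1 of sgPRMT5-2. Among the genes named by rule, DTX4 (-1.18), MAML2 (-1.06), NRARP (-0.99), NEURL1B (-0.96) and DTX3L (-0.59) were lower and DLK2 (0.68) was higher, each with an adjusted p of at most 0.0384. With 3 libraries per condition, single libraries were not tested as outliers. What lies behind the differences was not tested.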

How the results depend on the processing

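Of 580 log2 fold changes of the Notch genes and the 2 targets under other settings, 555 kept their direction and side of the threshold, 12 fell short of it, 7 newly passed it and 6 changed direction. With each library left out in turn, these numbers were 1170, 46, 9 and 35 of 1260. None (0) of the changes of direction concerned a called value. The fits of edgeR and DESeq2 were not run, and HEY1 gave no value at a minimum mean count of 10, nor in sgWDR77-1 against sgNeg with only the libraries compared, where it fell under the filter.

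With library totals alone, WDR77 in sgPRMT5-2 against sgNeg and DLL1 in sgWDR77-2 against sgNeg became -0.02, and the Notch genes called between PRMT5 and WDR77 knockouts fell from 5 to 3. With only the libraries compared in the fit, RBPJ (0.02), HES1 (0.02) and PRMT5 (0.01) changed direction in sgWDR77-1 against sgNeg, where the number called fell from 3 to 1 and the share of all genes called from 9.48% to 2.71%. Between the PRMT5 sgRNAs the number called rose from 1 to 3 and the share of all genes from 7.53% to 19.2%. Between the WDR77 sgRNAs that share fell from 2.41% to 0.121%. The cause of these changes was not tested.

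No general pairing of libraries by replicate number was seen in correlations of deviations from condition means. Of 30 same-numbered pairs, 5 had a correlation over 0.1 (median 0.00411, range -0.504 to 0.416), against a median of -0.000447 in other pairs. This check does not show that pairing was absent. With the replicate number as a block, HEY1 between the WDR77 sgRNAs became -0.02, JAG1 in sgWDR77-1 missed the threshold (adjusted p 0.0586, within 0.0324 to 0.161 over all alternatives) and the number called there was 2.

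With a library left out, the Notch genes called ranged from 0 to 4 in sgPRMT5-1, from 1 to 4 in sgWDR77-2 and from 3 to 6 between PRMT5 and WDR77 knockouts. Values that changed direction with a library left out ranged as follows. In sgPRMT5-1 against sgNeg, DLL1 ranged from -0.05 to 0.20, RBPJ from -0.01 to 0.06 and MAML1 from -0.38 to 0.03. In sgPRMT5-2, JAG1 ranged from -0.08 to 0.01 and MAML1 from -0.01 to 0.40. In sgWDR77-1, RBPJ ranged from -0.07 to 0.09, HES1 from -0.18 to 0.09 and PRMT5 from -0.14 to 0.06. In sgWDR77-2, DLL1 ranged from -0.13 to 0.11, RBPJ from -0.03 to 0.05, MAML1 from -0.34 to 0.06 and HEY1 from -0.18 to 0.90. Between the PRMT5 sgRNAs, NOTCH2 ranged from -0.01 to 0.06 and WDR77 from -0.20 to 0.00. Between the WDR77 sgRNAs, NOTCH3 ranged from -0.21 to 0.07, RBPJ from -0.07 to 0.12 and HEY1 from -0.44 to 0.65. Between PRMT5 and WDR77 knockouts, MAML1 ranged from -0.20 to 0.01.

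Depth limits HEY1, MAML1 and the pathway genes of a few CPM, where a library holds few reads and intervals are wide.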
